A study of Mus musculus with 4 samples.

Results

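Most of the 39 genes described here supply amino acids for protein synthesis, and all were read in mouse T cells. The 39 are 11 genes listed as amino acid transporters, 20 cytosolic aminoacyl-tRNA synthetases, and 8 enzymes of synthesis. These 8 make serine, glycine and asparagine or handle the one-carbon units taken from serine. Of the transporters, Slc6a6 carries taurine and Slc43a3 is known as a carrier of purine nucleobases. All 39 were chosen by name from a list. They were found among the 23480 gene identifiers of the deposited tables, 1 of them (Mars) through a synonym. RNA was sequenced in 4 libraries. In 2 of them, called Th9+TLA1, the T cells had been kept in a Th9 condition with TLA1, and in the other 2, called Th9, in a Th9 condition alone. The series title spells the added agent TL1A, a cytokine of the TNF superfamily, and both spellings are read here as the same agent. Interleukin 9 is the cytokine for which Th9 cells, a helper T cell subset, are known. The labels give no strain, age, dose or time, and they do not say whether replicates came from separate animals or cultures. A p-value here thus rests on how far these libraries spread, and that spread may be only technical. Both groups share the Th9 condition, so no comparison with resting T cells or with another helper subset is made.

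A T cell that starts to divide raises its uptake of amino acids, and its growth depends on transporters of glutamine and of large neutral amino acids. A synthetase joins each amino acid to its tRNA, which is the step called charging. When charged tRNA runs short, the kinase GCN2 phosphorylates the initiation factor eIF2, translation of the transcription factor ATF4 goes up, and ATF4 in turn acts on many of the genes listed here, among them Asns and several synthetase genes.

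The values are CPM, reads of a gene per 1e6 reads in genes. The Th9+TLA1 libraries held 2979482 and 3081187 reads in genes, against 4041633 and 3167270 for Th9. A count of 3 reads, used as the floor below which a level cannot be told from 0, equals 0.742 to 1.01 CPM per library and covers counting error only. T cell markers summed to 3614 and 3512 CPM with TLA1 and to 2752 and 3188 CPM without it, and none of the 8 markers was at 0. Il9, the cytokine that names the Th9 state, had 2879 and 2683 CPM in Th9+TLA1, against 1559.8 and 1445 CPM in Th9. All 3 NK cell and all 3 red cell markers were at 0 in every library, as were Lyz2, Csf1r and S100a8 among 6 myeloid markers. The myeloid sum was 7.72 and 4.54 CPM in Th9+TLA1, all of it Cd68, against 3.22 and 1.89 CPM in Th9. The 4 dendritic cell markers summed to 3.36 and 1.62 CPM in Th9+TLA1, against 0.247 and 0.316 CPM in Th9, with Siglech at 0. Mast cell markers, with Cpa3, Mcpt4 and Cma1 at 0, stayed at or below 5.05 CPM, and the 2 CD8 markers between 7.92 and 13.3 CPM, without a split by group. The 4 B cell markers summed to 28.9 and 29.2 CPM in Th9+TLA1, against 10.4 and 12.9 CPM in Th9, with Ms4a1 at 0. The part of these differences in the results on the 39 genes was not tested. These are bulk samples, in which fewer cells of a type and less RNA per cell cannot be told apart.

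The comparison asked how RNA levels of these genes differed when TLA1 was added. None of the 39 genes passed the test across all genes, while 1.14% of the 10324 genes tested did, 0.891% of them higher and 0.252% lower with TLA1 (limma, Benjamini-Hochberg adjusted p under 0.05). Most of them leaned lower with TLA1 by small amounts: 25 of 39 had a negative log2 fold change and 14 a positive one, where 51.1% of all genes tested were negative. The glutamine and neutral amino acid carriers Slc1a5, Slc38a1 and Slc1a4, the leucine and asparagine synthetases Lars and Nars, and the serine enzyme Shmt1 were lower in both Th9+TLA1 libraries than in either Th9 library. Glutaminyl-tRNA synthetase, Qars, was the only member whose 2 Th9+TLA1 values both exceeded the 2 Th9 values in deposited CPM. Log2 fold changes are Th9+TLA1 minus Th9 on the log2(CPM + 1) scale after TMM scaling, with n = 2 libraries per group, and understate the change of low genes.

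The plainest count is whether the libraries of the groups overlap in deposited CPM. They did not overlap for 22 of the 39 genes, against 48.1% of all genes tested. With TLA1, 21 of those 22 were lower, where 29% of all genes tested were lower without overlap, and 1 was higher, where 19.1% of all genes were. After TMM scaling, a view added after seeing the data, 21 did not overlap, against 47.4% of all genes, with 18 lower, against 23.7%, and 3 higher (Qars, Sars and Psph), also against 23.7%. Slc7a5, Gars and Rars overlapped on that scale. Elsewhere overlap refers to deposited CPM. At an unadjusted p under 0.05, limma picked 8 members, against 16.7% of all genes. Of these 7 were lower with TLA1, against 8.14% of all genes, and 1 was higher, against 8.54%. Slc43a1, which passed the filter on low values through its Th9 libraries alone, is among the lower genes in each of these counts. Neither edgeR's quasi-likelihood test nor DESeq2 on recovered reads called any member. For 33 of the 39 genes the 95% interval of the log2 fold change lay within -1 and 1, so for these a 2-fold difference falls outside the interval. The 6 others were Slc1a4, Slc7a11, Slc43a1, Lars, Qars and Shmt1.

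**Figure D1:**
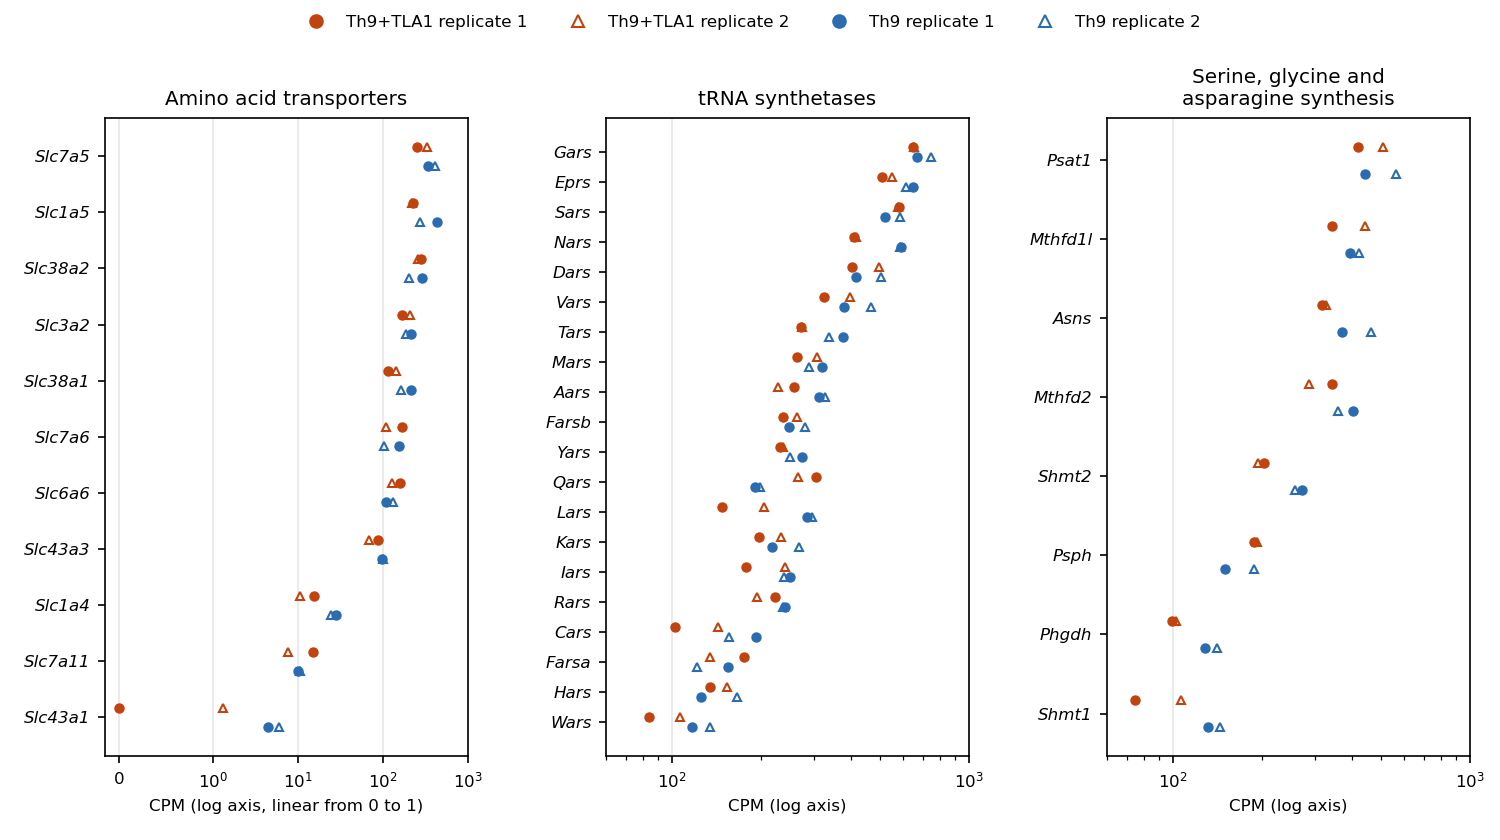
CPM of each of the 39 genes (log axis, linear from 0 to 1 CPM in the first panel), with Th9+TLA1 libraries in orange above Th9 libraries in blue. Circles are replicate 1 and triangles replicate 2. Most pairs of points lie close together, and Slc43a1 is the 1 gene with a library at 0.

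**Figure D2:**
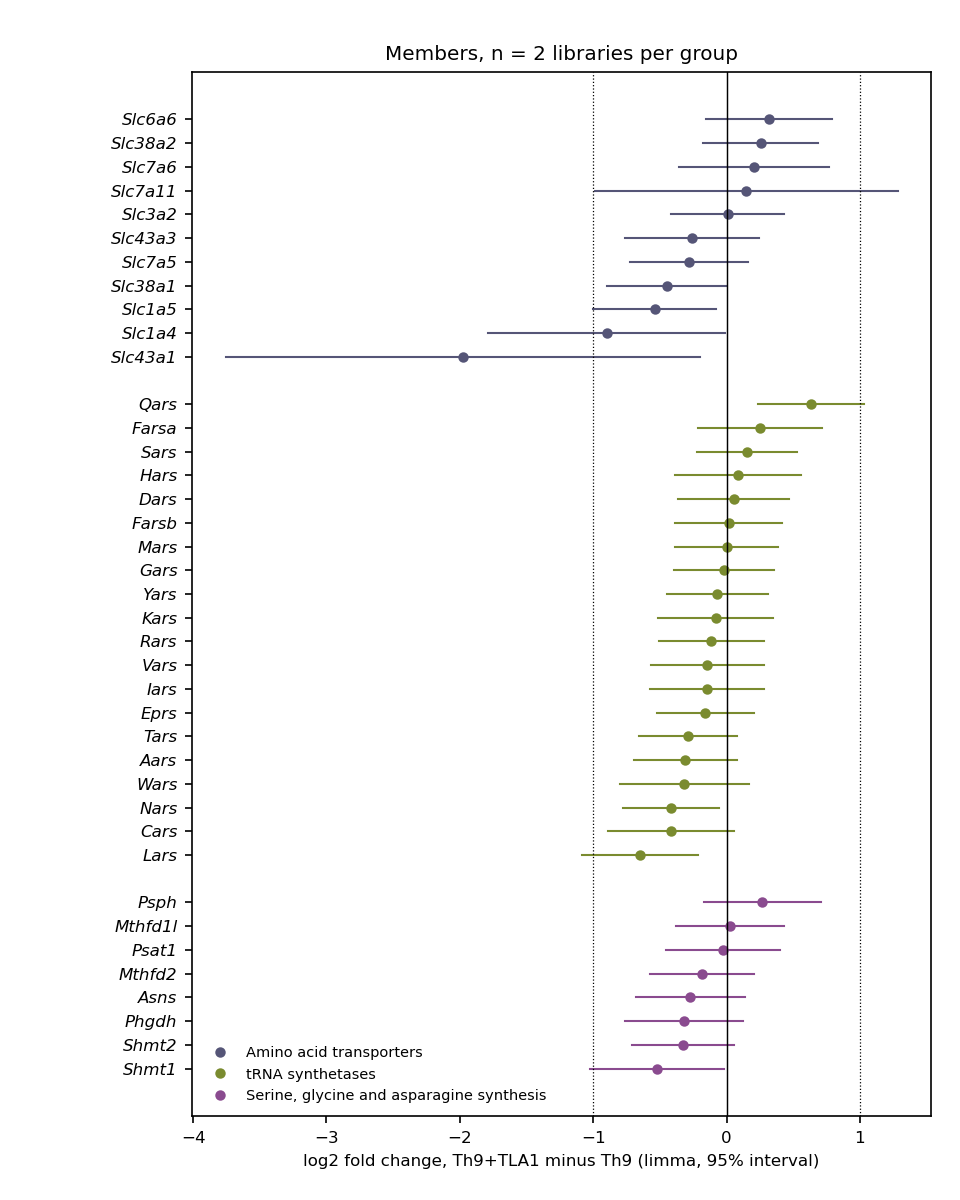
Log2 fold change of each gene (Th9+TLA1 minus Th9, limma, n = 2 libraries per group) with its 95% interval, sorted within each of the 3 groups of genes; dotted lines mark -1 and 1. Slc43a1, which passed the filter on low values through its Th9 libraries alone, lies lowest at -1.98 with the widest interval. Qars lies highest at 0.64.

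Summed over genes, all 3 groups were lower with TLA1 in deposited CPM. The 11 transporters summed to 1472 and 1484 CPM in Th9+TLA1, against 1883 and 1602 CPM in Th9, and the ratio of the means was 0.848. The 20 synthetases summed to 5681 and 6076 CPM in Th9+TLA1, against 6523 and 6805 CPM in Th9, a ratio of 0.882. The 8 enzymes of synthesis summed to 1986 and 2160 CPM in Th9+TLA1, against 2292 and 2540 CPM in Th9, a ratio of 0.858. In all 3 groups of genes both Th9+TLA1 sums lay under both Th9 sums in deposited CPM. For all 39 genes together the ratio was 0.871, and for the genes of 9 neighbouring lists, described further on, it was 0.921. The deposited CPM carry no correction for composition: on total count scaling the median of all genes tested was itself at -0.10 on the log2 scale, against -0.01 after TMM scaling. With the sums divided by the TMM factors the ratios were 0.906 for transporters, 0.939 for synthetases and 0.913 for synthesis. Of these 3 groups of genes only the transporter sums still stood apart. Those of synthetases overlapped, at 5895 and 6239.8 TMM-scaled CPM in Th9+TLA1, against 6135 and 6789 in Th9. Those of synthesis overlapped as well, at 2061 and 2218 TMM-scaled CPM in Th9+TLA1, against 2156 and 2533 in Th9. The sums of all 39 genes stayed apart, at 9484 and 9982 TMM-scaled CPM in Th9+TLA1, against 10063 and 10920 in Th9. Their ratio was 0.928. For the genes of the 9 neighbouring lists the TMM-scaled sums overlapped, with a ratio of 0.982. After TMM scaling the median log2 fold change was -0.26 for transporters, -0.10 for synthetases and -0.23 for enzymes of synthesis. Leaving out 1 library at a time put these medians between -0.29 and -0.08 for transporters, between -0.16 and -0.01 for synthetases and between -0.29 and -0.12 for synthesis. The value of -0.08 for transporters and that of -0.12 for synthesis both came without Th9 replicate 2, and that of -0.01 for synthetases without Th9+TLA1 replicate 1. With a filter at a mean of 10 CPM, under which Slc43a1 was not tested, the transporter median was -0.13.

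**Figure D3:**
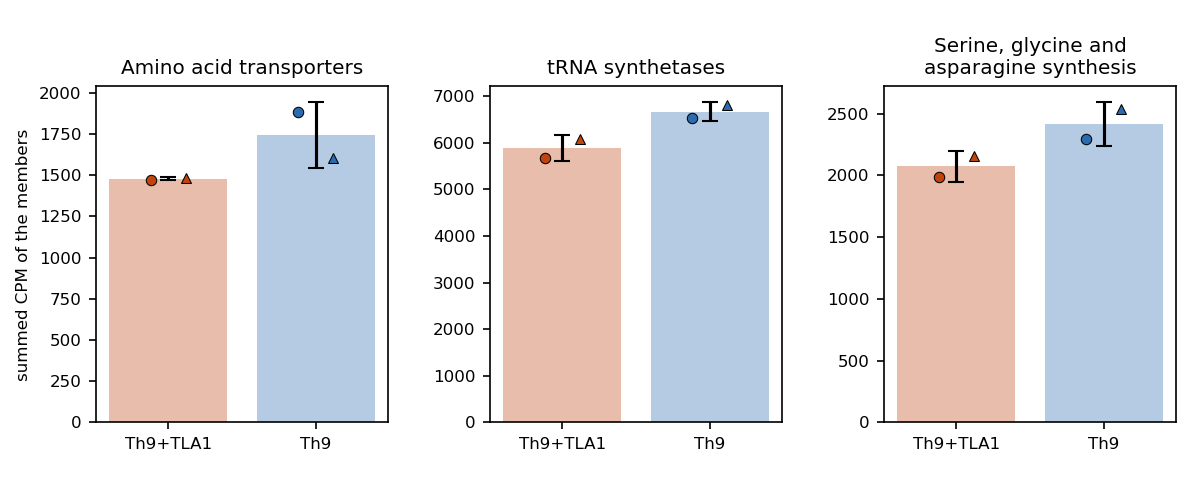
Summed deposited CPM of the genes of each group in Th9+TLA1 (left) and Th9 (right); bars are means of 2 libraries with the SD, circles replicate 1 and triangles replicate 2. Transporters averaged 1478 ± 8.32 CPM with TLA1 and 1743 ± 199 CPM without it, synthetases 5878 ± 279 and 6664 ± 200 CPM, and enzymes of synthesis 2073 ± 123 and 2416 ± 175 CPM.

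Among the transporters, 6 had a negative and 5 a positive log2 fold change, and none passed the test. By comparison 51.1% of all genes tested were negative. The glutamine carriers on the list went both ways, with Slc1a5 and Slc38a1 negative and Slc38a2 positive. Slc1a5 (Entrez 20514, chromosome 7, 16781334 to 16798274 of GRCm38.p6) encodes ASCT2, a sodium-dependent exchanger of glutamine and other neutral amino acids. It had 225 and 219 CPM in Th9+TLA1, against 435 and 272 CPM in Th9. The groups did not overlap, and Th9 replicate 1 stood well above the other 3 libraries. Its log2 fold change was -0.54 ± 0.21 (SE, limma adjusted p = 0.233). Without Th9 replicate 1 it was -0.25, and without Th9 replicate 2, with the same genes tested, it was -0.83 and past the threshold (adjusted p = 0.0434), while over all 17 alternatives the adjusted p ran between 0.0434 and 0.724.

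Slc38a1 (Entrez 105727, chromosome 15, 96571418 to 96643438) encodes SNAT1, another sodium-coupled glutamine carrier. It had 113 and 142 CPM in Th9+TLA1, against 211 and 163 CPM in Th9. The groups stood apart by less than the distance between the Th9 replicates. Limma gave a log2 fold change of -0.45 ± 0.21 (SE) and an adjusted p of 0.298 (limma). Its neighbour on chromosome 15, Slc38a2, which encodes the related carrier SNAT2 and is known to go up when amino acids are short, did not show that lean: 278 and 260.3 CPM in Th9+TLA1 overlapped with 289 and 199 CPM in Th9, at a log2 fold change of 0.26.

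Slc1a4 (Entrez 55963, chromosome 11, 20302180 to 20332713) encodes ASCT1, an exchanger of alanine, serine, cysteine and threonine. It had 15.4 and 10.4 CPM in Th9+TLA1, against 28.0 and 24.3 CPM in Th9. Both Th9+TLA1 values were below both Th9 values. Its log2 fold change of -0.90 ± 0.41 (SE) corresponds to a level 1.86-fold lower with TLA1, with an adjusted p of 0.295 (limma). Slc43a1 (Entrez 72401, chromosome 2, 84838855 to 84863586) encodes LAT3, a facilitative carrier of large neutral amino acids. It was the rarest transporter of the list with TLA1, at 0 and 1.30 CPM in Th9+TLA1 (0 and 4 reads), against 4.45 and 6.0 CPM in Th9 (18 and 19 reads). The groups did not overlap, and 1 library with TLA1 had no read, which allows a level of up to 1.01 CPM there. Slc43a1 passed the filter on low values through its Th9 libraries alone, so a lower level with TLA1 was favoured in advance. Its log2 fold change of -1.98 ± 0.81 (SE), with an adjusted p of 0.254 (limma), depended on the pseudocount: it was -2.53 with 0.5 CPM and -0.84 with 5 CPM.

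The heteromeric exchangers share Slc3a2, the heavy chain that brings their light chains to the membrane. Slc3a2 had 165 and 209 CPM in Th9+TLA1, against 211 and 184 CPM in Th9, with a log2 fold change of 0.01 that turned to -0.083 on total count scaling. Slc7a5 (Entrez 20539, chromosome 8, 121881146 to 121907686), the light chain LAT1 that brings in leucine in exchange for glutamine, had the most CPM of the transporters. It had 249 and 331 CPM in Th9+TLA1, against 336 and 410.4 CPM in Th9. The groups were separated by a few CPM and each spread more widely than that gap. The fitted difference was -0.28 ± 0.20 (SE, limma adjusted p = 0.532).

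The other light chains did not lean lower. Slc7a6, which encodes y+LAT2, exchanges basic for neutral amino acids and had 169 and 109 CPM in Th9+TLA1, against 155 and 101 CPM in Th9. Slc7a11, the cystine-glutamate exchanger xCT that feeds glutathione synthesis, had 15.1 and 7.46 CPM in Th9+TLA1, against 9.90 and 10.4 CPM in Th9. In both genes the Th9+TLA1 replicates differed by more than the group means did, and the log2 fold changes were 0.21 and 0.15. Slc6a6, the taurine transporter, had 157 and 127 CPM in Th9+TLA1, against 109 and 132 CPM in Th9, at a log2 fold change of 0.32. Slc43a3, a member of the LAT3 family by sequence that is known as a carrier of purine nucleobases, had 86.9 and 67.8 CPM in Th9+TLA1, against 96.5 and 99.8 CPM in Th9, at -0.26. The last gene was lower without overlap, the taurine transporter overlapped, and neither passed the test.

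Levels of different genes were compared per kilobase of exon. In Th9+TLA1 the order of the transporters was led by Slc7a5 at 82.4 CPM per kb and Slc1a5 at 80.2 CPM per kb. In Th9 the same genes led in the other order, with 106 CPM per kb for Slc7a5 and 128 CPM per kb for Slc1a5. Slc3a2 and Slc38a2 followed in both groups, with 61.8 and 57.7 CPM per kb in Th9+TLA1, against 65.2 and 52.3 CPM per kb in Th9. At the other end stood Slc1a4 at 3.29 CPM per kb with TLA1 and 6.66 without it, Slc7a11 at 1.15 and 1.03, and Slc43a1 at 0.180 and 1.45. Neighbours in these orders whose libraries overlap, such as the leading pair, do not differ beyond their spread.

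Of the 20 synthetases, 13 had a negative and 7 a positive log2 fold change, and none passed the test. In 10 the Th9+TLA1 libraries lay below the Th9 libraries without overlap in deposited CPM, where 29% of all genes tested did, and in 1, Qars, above, where 19.1% did. Together they cover all the amino acids of proteins: Farsa and Farsb encode the subunits of 1 enzyme, Eprs charges both glutamate and proline tRNAs, and Gars and Kars also supply the mitochondrial enzyme. Their 95% intervals spanned at most -1.09 to 1.03 on the log2 scale.

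Qars and Lars had the largest differences, in opposite directions. Qars (Entrez 97541, chromosome 9, 108508005 to 108515941), which charges glutamine tRNAs, had 305 and 265 CPM in Th9+TLA1, against 191 and 198 CPM in Th9. Both Th9+TLA1 libraries were above both Th9 libraries by more than the spread within either group. Its log2 fold change was 0.64 ± 0.18 (SE), a level 1.55-fold higher with a 95% interval of 1.18 to 2.05, and its adjusted p of 0.126 was the lowest among the 39 genes (limma). Over the 17 alternatives its log2 fold change ran between 0.53 and 0.74, and its adjusted p was lowest at 0.0721 with DESeq2.

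Lars (Entrez 107045, chromosome 18, 42202298 to 42262237) charges leucine tRNAs and is also known as a leucine sensor of the mTORC1 pathway. It had 148 and 204 CPM in Th9+TLA1, against 285 and 296 CPM in Th9. Both Th9+TLA1 libraries were lower, although they differed from each other by more than the Th9 libraries did. On the log2 scale the difference was -0.65 ± 0.20 (SE), a level 1.57-fold lower, with an adjusted p of 0.146 (limma). Without Th9+TLA1 replicate 1 it was -0.42, and without Th9+TLA1 replicate 2 it was -0.87.

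Nars (Entrez 70223, chromosome 18, 64499655 to 64516515), which charges asparagine tRNAs, had close replicates in deposited CPM. It had 411 and 415 CPM in Th9+TLA1, against 589 and 587 CPM in Th9. Its log2 fold change was -0.42 ± 0.17 (SE, limma adjusted p = 0.239), 1.33-fold lower with TLA1. Cars (Entrez 27267, chromosome 7, 143557230 to 143600090), the cysteine enzyme, had 103 and 143 CPM in Th9+TLA1, against 192 and 156 CPM in Th9. Its groups were apart by less than either spread, at a log2 fold change of -0.42 ± 0.22 (SE) and an adjusted p of 0.363 (limma).

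Gars (Entrez 353172, chromosome 6, 55038001 to 55079504), the glycine enzyme, had the most CPM of the synthetases and one of the smallest differences. It had 648 and 655 CPM in Th9+TLA1, against 666 and 745 CPM in Th9, and a log2 fold change of -0.02 ± 0.17 (SE) and an adjusted p of 0.972 (limma). Its 95% interval of -0.40 to 0.36 does not reach a 2-fold difference in either direction. Per kilobase it also led, with 274 CPM per kb in Th9+TLA1 and 296 CPM per kb in Th9. Dars and Sars came next with TLA1, at 183 and 159 CPM per kb, and Nars and Dars came next without it, at 201 and 187 CPM per kb. Wars was the lowest in both, at 33.2 CPM per kb with TLA1 and 43.9 CPM per kb without it.

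Among the other synthetases, Wars (tryptophan), Aars (alanine) and Tars (threonine) had log2 fold changes of -0.32, -0.31 and -0.29, and their groups did not overlap. Aars had 257 and 228 CPM in Th9+TLA1, against 313 and 327 CPM in Th9, and Tars had 273 and 275 CPM in Th9+TLA1, against 377 and 337 CPM in Th9. Eprs had -0.16, Rars (arginine) -0.11 and Yars (tyrosine) -0.07, also without overlap. Iars (isoleucine), Vars (valine) and Kars (lysine) had -0.14, -0.14 and -0.08, with overlapping groups. Farsb had 0.02, Dars (aspartate) 0.06, Hars (histidine) 0.09, Sars (serine) 0.15 and Farsa 0.25, all with overlapping groups. Mars (methionine) was at 0.00. On total count scaling Farsb, Dars, Hars and Mars turned negative, at -0.076, -0.036, -0.0039 and -0.092.

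In mammals 8 of these genes (Dars, Eprs, Iars, Kars, Lars, Mars, Qars and Rars) encode the synthetases of the multisynthetase complex. Their log2 fold changes had a median of -0.10, with 5 negative and 3 positive, and the 12 synthetases outside it had a median of -0.11, with 8 negative and 4 positive. The complex holds both of the widest differences, those of Qars and Lars. Its scaffold genes Aimp1 and Aimp2 had log2 fold changes of 0.37 and 0.07, and neither passed the test.

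The cDNA kit does not mark strand, so reads in a stretch shared by overlapping genes cannot be assigned by strand. Overlap was read from the start and end of each gene, and whether exons are shared was not tested. Aars overlaps Ddx19b, Mars overlaps Ddit3, Hars overlaps Hars2 and Psph overlaps Cct6a, and the mean levels of these partners over the 4 libraries were 48.0, 50.1, 42.8 and 1010 CPM. Farsb, Wars and Shmt2 overlap genes whose means over the 4 libraries were at most 2.47 CPM.

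Of the 8 enzymes of synthesis, 6 had a negative and 2 a positive log2 fold change, and none passed the test. In deposited CPM 5 were lower without overlap, where 29% of all genes tested were. Serine is made from a glycolytic intermediate in 3 steps by Phgdh, Psat1 and Psph, and Shmt1 in the cytosol and Shmt2 in mitochondria turn it into glycine and a one-carbon unit. Shmt1 (Entrez 20425, chromosome 11, 60788897 to 60811265) had 74.8 and 107 CPM in Th9+TLA1, against 131 and 144 CPM in Th9. Both Th9+TLA1 libraries were lower, and they differed from each other by more than the gap between the groups. The difference on the log2 scale was -0.52 ± 0.23 (SE, limma adjusted p = 0.279), 1.43-fold lower. Shmt2 (Entrez 108037, chromosome 10, 127517123 to 127522444) had 203 and 193 CPM in Th9+TLA1, against 273 and 257 CPM in Th9. The groups were separated by more than either spread, at a log2 fold change of -0.33 ± 0.18 (SE) and an adjusted p of 0.383 (limma).

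Phgdh (Entrez 236539, chromosome 3, 98313171 to 98339969), which catalyses the first step of serine synthesis, had 99.3 and 103 CPM in Th9+TLA1, against 128 and 141 CPM in Th9. Replicates were close and the groups apart, at a log2 fold change of -0.32 ± 0.20 (SE) and an adjusted p of 0.467 (limma). Psat1 (Entrez 107272, chromosome 19, 15905123 to 15925059), the next enzyme, had the most CPM of the group and overlapping values: 419 and 509 CPM in Th9+TLA1, against 444 and 565 CPM in Th9, at -0.02 ± 0.20 (SE, limma adjusted p = 0.971). Psph, the last enzyme, had 188 and 192 CPM in Th9+TLA1, against 149.7 and 188 CPM in Th9, at 0.27. The 3 steps of the pathway thus had log2 fold changes of -0.32, -0.02 and 0.27, none of them past the test.

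Mthfd2, a mitochondrial enzyme that oxidises the one-carbon unit, had 343 and 287 CPM in Th9+TLA1, against 403 and 359 CPM in Th9, at a log2 fold change of -0.18 without overlap. Mthfd1l, which releases that unit as formate, had 343 and 442 CPM in Th9+TLA1, against 393 and 423 CPM in Th9, at 0.02 with overlap and at -0.067 on total count scaling. Per kilobase, Psat1, Mthfd2 and Asns were highest with TLA1, at 158, 151 and 149 CPM per kb, and Asns, Mthfd2 and Psat1 without it, at 193, 183 and 172 CPM per kb. Shmt1 was lowest in both, at 31.8 CPM per kb with TLA1 and 48.0 CPM per kb without it.

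Asns (Entrez 27053, chromosome 6, 7675165 to 7693209) makes asparagine from aspartate and glutamine and is a classical target of ATF4. It had 317 and 327 CPM in Th9+TLA1, against 371 and 463 CPM in Th9. The groups did not overlap, and the Th9 replicates differed by more than the gap between the groups. The log2 fold change was -0.27 ± 0.19 (SE, limma adjusted p = 0.501). The promoter that RefSeq gives for Asns, read from a table of GRCm38.p6, runs 250 bases before and 50 after its start, at chr6:7693160-7693459 on the minus strand. It is shown because it holds the letters TGATGNAA, the core of the C/EBP-ATF response element that was first described in the human ASNS gene and that ATF4 binds with a C/EBP partner. The capitals mark that match.
Asns: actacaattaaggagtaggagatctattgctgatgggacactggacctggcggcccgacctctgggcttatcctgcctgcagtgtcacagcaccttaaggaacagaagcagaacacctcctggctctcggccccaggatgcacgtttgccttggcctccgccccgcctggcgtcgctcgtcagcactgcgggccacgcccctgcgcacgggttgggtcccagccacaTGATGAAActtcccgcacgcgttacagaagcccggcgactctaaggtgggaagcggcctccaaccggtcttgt

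The same letters were searched on both strands in the RefSeq promoters of all members. A promoter was found for 27 of the 39 genes, of which Slc7a6 and Psat1 have several, and for 12, among them Slc1a5, Slc38a1, Slc7a5, Lars and Nars, the table gave none. TGATGNAA occurred in 8 of the 27 genes (29.6%), against 1219 of the 27025 genes with a promoter in the table (4.51%). Counted per promoter, it was in 27.6% of those of members and in 3.97% of all. The 8 genes were 2 transporters, Slc1a4 and Slc7a11, 5 synthetases, Aars, Gars, Iars, Tars and Yars, and 1 enzyme of synthesis, Asns. Their matches are given with 20 bases on either side, 5′ to 3′ along the strand of the gene and with the match in capitals, to let the variable base and the flanks be compared. TGATGNAA reads as TTNCATCA on the other strand, and positions count from the RefSeq start, which for Slc7a11, Aars and Yars lies within the gene.
Slc1a4: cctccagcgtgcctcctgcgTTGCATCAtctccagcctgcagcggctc
Slc7a11, first match: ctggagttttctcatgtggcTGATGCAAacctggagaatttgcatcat
Slc7a11, next match: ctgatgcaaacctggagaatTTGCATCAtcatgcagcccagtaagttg
Aars, first match: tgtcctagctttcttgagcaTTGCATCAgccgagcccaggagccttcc
Aars, next match: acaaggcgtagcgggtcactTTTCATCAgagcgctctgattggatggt
Gars: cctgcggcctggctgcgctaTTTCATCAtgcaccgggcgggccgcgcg
Iars: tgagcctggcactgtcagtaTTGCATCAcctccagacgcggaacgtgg
Tars: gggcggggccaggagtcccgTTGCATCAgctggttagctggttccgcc
Yars: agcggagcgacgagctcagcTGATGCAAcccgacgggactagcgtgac

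These windows lie at chr11:20332690-20332737 on the minus strand for Slc1a4, at chr3:50443652-50443699 and chr3:50443633-50443680 on the minus strand for Slc7a11, and at chr8:111033710-111033757 and chr8:111033831-111033878 on the plus strand for Aars. The others are at chr6:55037951-55037998 (plus) for Gars, chr13:49682117-49682164 (plus) for Iars, chr15:11399646-11399693 (minus) for Tars and chr4:129189886-129189933 (plus) for Yars. The match began at -4 in Slc1a4, -66 and -47 in Slc7a11, -112 and 10 in Aars, -30 in Gars, 8 in Iars, -15 in Tars, 4 in Yars and -23 in Asns. Most of the 10 matches thus lay close to the start, and 7 of them were on the strand opposite to the gene.

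The 8 genes with the match had a median log2 fold change of -0.21, ranging between -0.90 and 0.15, with 7 of 8 negative. The 19 members with a promoter and no match had a median of 0.01, with 8 of 19 negative. No test was made of that difference, and a match of letters is not a binding site. The 12 members with no promoter in the table enter neither this comparison nor the next, and most of them were negative. Lars had -0.65, Slc1a5 -0.54, Slc38a1 -0.45, Cars -0.42, Nars -0.42, Wars -0.32, Slc7a5 -0.28 and Slc43a3 -0.26. Vars had -0.14, Rars -0.11, Hars 0.09 and Slc6a6 0.32. Promoters of these 12 were not searched, so whether they hold the match is not known. The E-box CACGTG, the letters that MYC binds with MAX, was in 5 of the 27 genes (18.5%), against 8.09% of all genes with a promoter. Those genes were Slc43a1, Aars, Farsb, Iars and Tars, with a median log2 fold change of -0.29, against -0.01 for the 22 without it. Slc43a1 passed the filter on low values through its Th9 libraries alone, so its lower level with TLA1 was favoured in advance. Aars had -0.31, Farsb 0.02, Iars -0.14 and Tars -0.29. This difference was not tested either. Aars, Iars and Tars held both motifs, which did not overlap, so both comparisons include these genes.

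Qars, the member with the lowest p, is given for comparison. TGATGNAA did not occur in its RefSeq promoter, at chr9:108507755-108508054 on the plus strand, and no capitals are marked.
Qars: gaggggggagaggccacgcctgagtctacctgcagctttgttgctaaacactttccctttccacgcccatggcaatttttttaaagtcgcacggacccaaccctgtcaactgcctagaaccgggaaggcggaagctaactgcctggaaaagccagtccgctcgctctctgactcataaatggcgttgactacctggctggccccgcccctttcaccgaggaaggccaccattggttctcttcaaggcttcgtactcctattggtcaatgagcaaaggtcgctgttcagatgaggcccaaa

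Genes that work beside the 39 were read from the same fit in 9 lists, of which 133 of 156 genes could be tested. One of the 133, Sesn3, passed the test. Sesn3, which encodes sestrin 3, a member of the family that senses leucine and restrains mTORC1 and that is driven by FOXO factors, had 95.7 and 70.8 CPM in Th9+TLA1, against 28.2 and 34.4 CPM in Th9. Both Th9+TLA1 values were more than 2-fold above the higher Th9 value. It rose 2.76-fold (95% interval 1.80 to 4.23), a log2 fold change of 1.46 ± 0.28 (SE) and an adjusted p of 0.0320 (limma). The call was lost on total count scaling (adjusted p = 0.0646), with no filter on low genes (0.0797), and without Th9 replicate 1 (0.172), Th9 replicate 2 (0.131) or Th9+TLA1 replicate 1 (0.0920), within a range of 0.00175 to 0.204 over 17 alternatives. No other gene of the mTORC1 list passed, and of its 24 genes tested 12 had a positive and 12 a negative log2 fold change, with a median of -0.04.

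**Figure D4:**
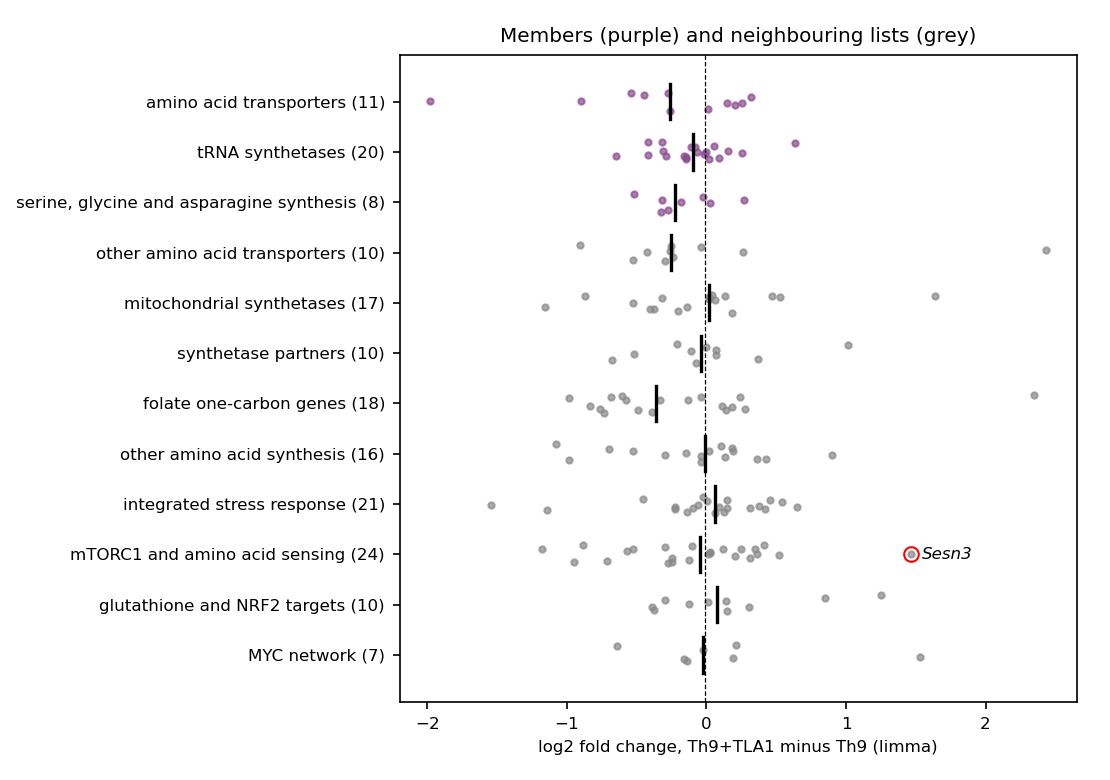
Log2 fold change (Th9+TLA1 minus Th9, limma) of every gene tested in the 3 groups of the 39 genes (purple) and in 9 neighbouring lists (grey), with the number of genes in brackets. Black bars are medians, the dashed line is the median of all genes tested at -0.01, and the red circle marks the 1 gene past the threshold, Sesn3.

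The stress pathway of GCN2 and ATF4 described above gave no called gene among 21 tested, with a median log2 fold change of 0.06. Atf4 had 141 and 119 CPM in Th9+TLA1, against 192 and 136 CPM in Th9, at -0.23. Among its known targets Trib3 and Ddit3 had -0.46 and 0.06, and Atf3 had 228 and 257 CPM in Th9+TLA1, against 175 and 153 CPM in Th9, at 0.65 with an adjusted p of 0.121 (limma). Jdp2, a repressor of the AP-1 family, had 3.36 and 3.25 CPM in Th9+TLA1, against 11.9 and 12.6 CPM in Th9, at -1.55 and an adjusted p of 0.206. Eif2ak2, the kinase PKR, had -1.14, Eif2ak4, the kinase GCN2, had -0.10, and Eif2s1, the eIF2 subunit they phosphorylate, had 0.14. Translation of ATF4 was not measured, since these libraries give RNA levels only.

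The folate and purine genes of the one-carbon cycle had the lowest median of the 9 lists, -0.36 over 18 genes tested, with 12 negative and none past the threshold. Ppat, the first enzyme of purine synthesis, had 60.7 and 74.6 CPM in Th9+TLA1, against 118 and 122 CPM in Th9, at -0.73 (limma adjusted p = 0.141). Mtrr, which keeps methionine synthase active, had 34.6 and 17.9 CPM in Th9+TLA1, against 65.8 and 43.6 CPM in Th9, at -0.99. Both genes were lower without overlap. Mthfd2l, a paralog of Mthfd2, ran the other way, with 18.5 and 4.87 CPM in Th9+TLA1, against 2.72 and 0.316 CPM in Th9, at 2.35 (limma adjusted p = 0.181), and its Th9+TLA1 libraries differed from each other, in CPM, by more than the group means did. Mthfd2l passed the filter on low values through its Th9+TLA1 libraries alone, so a higher level with TLA1 was favoured in advance. Dld, the most abundant of this list, had -0.04.

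Of 16 tested genes of other amino acid synthesis, Mat2a came nearest to the threshold. Mat2a, which makes S-adenosylmethionine from methionine, had 106 and 110.0 CPM in Th9+TLA1, against 323 and 185 CPM in Th9. Its groups were well apart, with a wide spread in Th9, at a log2 fold change of -1.08 ± 0.24 (SE) and an adjusted p of 0.0544 (limma). It passed under 8 of the 17 alternatives, with adjusted p between 0.00265 and 0.331. Cth, which makes cysteine, had 32.2 and 24.7 CPM in Th9+TLA1, against 73.0 and 49.9 CPM in Th9, at -0.98 (adjusted p = 0.146). Glud1, the most abundant, had 0.02, and -0.072 on total count scaling.

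The remaining lists held no called gene. Among 10 tested transporters outside the 39 the median log2 fold change was -0.25, with 8 negative and 2 positive. The listed transporters had -0.26, and -0.13 with a filter at a mean of 10 CPM, under which Slc43a1 was not tested. Slc7a2 encodes the cationic amino acid transporter CAT2, which takes up arginine. It had 7.38 and 7.46 CPM in Th9+TLA1, against 0 and 1.58 CPM in Th9, at 2.43 ± 0.77 (SE, limma adjusted p = 0.152). Slc7a2 passed the filter on low values through its Th9+TLA1 libraries alone, so a higher level with TLA1 was favoured in advance. Over the alternatives its log2 fold change ran between 1.14 and 3.36. Slc7a3, the related CAT3, had 6.38 and 14.0 CPM in Th9+TLA1, against 15.3 and 25.6 CPM in Th9, at -0.90, and Slc38a10, the most abundant, had 0.26. Of the transporters listed, 12 were too low to be tested. Among 17 mitochondrial synthetases the median was 0.02. Wars2 had 18.5 and 32.5 CPM in Th9+TLA1, against 4.95 and 11.7 CPM in Th9, at 1.64 (adjusted p = 0.152), and Rars2 had 18.5 and 31.5 CPM in Th9+TLA1, against 57.2 and 60.3 CPM in Th9, at -1.16 (adjusted p = 0.124). The cytosolic partners of these 2 enzymes had -0.32 (Wars) and -0.11 (Rars). Iars2 had -0.21.

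Tarsl2, a paralog of Tars, had 20.8 and 22.4 CPM in Th9+TLA1, against 12.1 and 9.79 CPM in Th9, at 1.01 (limma adjusted p = 0.257), where Tars itself had -0.29. Gatb, a subunit of the mitochondrial amidotransferase that makes glutamine tRNA in place of a glutaminyl synthetase, had 9.40 and 9.09 CPM in Th9+TLA1, against 14.1 and 18.9 CPM in Th9, at -0.68, and Eef1e1, a further part of the multisynthetase complex, had -0.00. Among glutathione genes and targets of the transcription factor NRF2, Hmox1 had 29.5 and 23.7 CPM in Th9+TLA1, against 11.1 and 11.4 CPM in Th9. Its log2 fold change was 1.25 (limma adjusted p = 0.159). Gss, glutathione synthetase, had 33.6 and 40.6 CPM in Th9+TLA1, against 22.0 and 20.8 CPM in Th9, at 0.85. Txn1, thioredoxin and the most abundant of this list, had 0.14. Myc, a regulator of many of these genes in dividing T cells, had 328 and 322 CPM in Th9+TLA1, against 418 and 359 CPM in Th9, at -0.16 without overlap. Its partner Max had 53.7 and 39.9 CPM in Th9+TLA1, against 90.1 and 66.6 CPM in Th9, at -0.64, and the antagonist Mxi1 had 0.21. Mycn had 1.53 at no more than 4.22 CPM. It passed the filter on low values through its Th9+TLA1 libraries alone, so a higher level with TLA1 was favoured in advance.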

How the data were processed

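The 4 libraries of mouse T cell RNA, 2 per group, were sequenced from SMARTer Ultra Low Input cDNA on an Ion Torrent instrument, per the labels' protocols. HTSeq 0.5.4, edgeR and mm10 are named in the submitters' processing notes. For aligner and annotation, names were not given in the sources used here. As deposited by the authors, the values are CPM. Per library, 100% of non-zero CPM were whole multiples of the worth of 1 read within 0.01 of a read, so reads could be recovered.

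Identifiers were named with a RefSeq table, whose build GRCm38.p6 is that of mm10 and which covered 23383 of 23480. Exon lengths came from GENCODE M21. Genes passing filterByExpr (minimum count 10 on recovered reads) were kept, 10324 in all, including every one of the 39. Slc43a1 passed through its Th9 libraries alone, and of the genes named from the lists Slc7a2, Mthfd2l and Mycn passed through Th9+TLA1 alone. CPM were divided by TMM factors (0.964 to 1.06), and limma (lmFit, eBayes with trend) compared the groups on log2(CPM + 1), two-sided, with Benjamini-Hochberg adjustment over all genes and a threshold of 0.05. CPM printed are as deposited. The script was tested on simulated data.

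The members and the lists were chosen with earlier results of these data known. A member was given in full if it was called, was among the 4 genes of its group that differed most on the log2 scale, or was the most abundant of its group. From each list came the called genes (up to 3), or else the 2 largest differences and the most abundant gene. Atf4, Trib3, Ddit3, Atf3, Eif2ak4, Ppat, Aimp1, Aimp2 and Myc were named after their values were seen.

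Deviations of the replicate 1 libraries from their group means did not go together (r = -0.01 over 10324 genes), so the numbers were not used as pairs in the main fit. With 2 libraries per group, replicate 2 mirrors replicate 1 and adds nothing to this r, which is thus a weak guide to pairing. Replicates were not copies of a library: the chi-square per degree of freedom between replicates was 7.54 (Th9+TLA1) and 12.2 (Th9). The alternatives tried were RLE or total count scaling, pseudocounts of 0.5 and 5 CPM, no filter or one at a mean of 10 CPM, a block for the replicate number, edgeR and DESeq2 on recovered reads, and leaving out each library, with the filter redone or, chosen after seeing the data, with the same genes tested. With 1 library left in a group, its spread was taken as that of the other. R 4.3.3 ran DESeq2 1.42.0, limma 3.58.1 and edgeR 4.0.16, and Python 3.11.15 ran matplotlib 3.10.9, numpy 2.4.6 and pandas 2.3.3.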

Additional observations from a re-analysis of the deposited data

How the results depend on the processing

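With 2 libraries per group of 2979482 to 4041633 reads in genes, small differences could not be told from replicate spread, and a p that misses the threshold does not show equal levels. No member passed the test under any of the 17 alternatives except 1 transporter, Slc1a5, without Th9 replicate 2 and with the same genes tested, so leaving out 1 library gave 0 to 1 called members. The direction was the same under every alternative for 26 of the 39 members.

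Genes called over all genes, 118, moved by more than 1.5 times to 73 on total count scaling, 33 with no filter, 273 with DESeq2 and 225 with a replicate block. Leaving out 1 library gave 19 to 312. The lists' 1 call became 2 with RLE scaling, 5 CPM as the pseudocount, the stricter filter or the replicate block, 3 with DESeq2, 0 on total count scaling or with no filter, and 0 to 4 without 1 library. The replicate block changed no call of a member and moved the count over all genes.

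The median log2 fold change of transporters was -0.35 on total count scaling and -0.13 with the stricter filter, under which Slc43a1 was not tested. That of synthetases was -0.19 on total count scaling. Leaving out 1 library gave -0.29 to -0.079 for transporters, -0.16 to -0.012 for synthetases and -0.29 to -0.12 for synthesis. On total count scaling 31 of 39 members were negative.

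Reversed values on total count scaling were Slc3a2 -0.083, Dars -0.036, Farsb -0.076, Hars -0.0039, Mars -0.092, Mthfd1l -0.067 and Glud1 -0.072. Mars had -0.0012 with no filter and -0.0074 with the stricter one, and Eef1e1 had 0.0021 with RLE scaling. Leaving out 1 library reversed Slc3a2 (-0.16 to 0.17), Slc7a6 (-0.11 to 0.53), Slc7a11 (-0.32 to 0.62), Dars (-0.13 to 0.25), Farsb (-0.12 to 0.16), Gars (-0.15 to 0.12), Hars (-0.16 to 0.34), Iars (-0.36 to 0.066), Kars (-0.28 to 0.12), Mars (-0.11 to 0.11), Vars (-0.34 to 0.064), Psat1 (-0.25 to 0.20), Mthfd1l (-0.15 to 0.20), Iars2 (-0.53 to 0.12), Eef1e1 (-0.20 to 0.21), Dld (-0.12 to 0.044), Glud1 (-0.20 to 0.25) and Txn1 (-0.053 to 0.33). The cause of these moves was not tested.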
